A study of Homo sapiens with 3 samples.

Results

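SOX proteins are transcription factors that bind DNA through an HMG box, a domain that sits in the minor groove and bends the DNA. They act mostly together with partner factors on neighbouring sites. The family is divided into groups by the sequence of that box. Members of group B1 keep stem cells and neural progenitors undifferentiated, those of group C act in neuronal and mesenchymal precursors, those of group D lack a transactivation domain of their own and modulate the action of others, and those of group E direct the neural crest and its descendants, among them melanocytes, Schwann cells and cartilage.

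The genes described here are 10 members of this family, chosen by name: SOX2 of group B1, SOX4, SOX11 and SOX12 of group C, SOX5, SOX6 and SOX13 of group D, and SOX8, SOX9 and SOX10 of group E. Every non-control probe that carries one of these 10 symbols was taken, which gave 18 probes, out of 19 numbered SOX genes and 30982 gene names on the array. The list was selected on these same signals, in that earlier results from the 3 arrays were known when it was drawn up. The signals and their ratios are therefore given as a description of the 10 genes, with no test.

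The cells were 1205Lu, an established human melanoma line that was obtained from a lung metastasis of a WM793 xenograft in mice. The original monolayer (OM) was kept for 14 days in RPMI-1640 with 10% FCS. Melanoma bodies (MB), which are attached 3-dimensional aggregates, were grown for 14 days in hESC medium, that is DMEM F-12 with 20% Knock Out serum replacement. The new monolayer (NM) came from bodies of the same 14 days, which were then returned for 10 days to RPMI-1640 with 10% FCS, and bodies still present were taken away before the RNA was made. All 3 populations are thus the same line, no engineered allele is named for any of them, and the growth medium changes together with the growth form, so the effects of the medium and of the 3-dimensional form cannot be told apart. One array was hybridised per population, so no value has a replicate culture behind it.

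Scaling used the average signal of a glycolytic enzyme, an actin and a chaperone (GAPDH, ACTB and HSP90AA1), and ratios between populations were taken after this scaling. Relative to OM the factor was 0.978 for MB and 0.877 for NM. Between 64.7% and 71.0% of the 41000 probes of an array were well above background by the scanner software. All 18 SOX probes were printed in 1 spot, and none was saturated or marked as an outlier. Signals in a.u. are printed before scaling unless called scaled, folds and ratios after it, and the errors are the scanner software's own error of a spot. Among 198 probes printed in several spots, the log2 ratio of MB to OM from single spots had an SD of 0.07, or 1.05-fold. This spread is technical, and the spread between cultures is unknown.

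As to the identity of the cells, the 8 pigment cell markers had a summed scaled signal of 28863 a.u. in OM, 49419 in MB and 19509 in NM, nearly all of it S100B, at 25155, 44767 and 15170 scaled a.u. The others did not move together. The ratio of MB to OM was 0.748 for SILV and 1.73 for MITF on its brightest probe. For PAX3 it was 1.24 on the brightest probe and 0.582 on the probe with the lowest ratio. DCT and MLANA, with ratios of 0.963 and 1.29, read under 100 a.u. on every array. MITF, S100B and PAX3 were well above background on every array, whereas TYR and TYRP1, enzymes of melanin synthesis, were not well above background on any, and MLANA was not in NM. Of 4 epithelial markers TACSTD1, CDH1 and KRT5 were at background on all 3 arrays, and KRT14 carried the sum of 229 a.u. in OM, 396 in MB and 158 in NM. Of 4 blood markers PTPRC was at background throughout, and the sum lay between 208 and 222 a.u. The 4 endothelial markers summed to 220, 503 and 363 a.u. in the order OM, MB and NM, and CDH5 was at background on all 3 arrays. VWF read 185, 390 and 95.6 a.u., PECAM1 was well above background only in MB, at 87.7 a.u., and TEK only in NM, at 203 a.u. and at least 11.1-fold above OM. The 4 fibroblast markers summed to between 38.5 and 61.3 a.u., with COL1A1, COL1A2 and LUM at background. The part of other cell types in the SOX signals was not tested. In these bulk samples, a change in the share of cells that express a gene and a change in RNA per cell cannot be told apart.

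Of the 18 SOX probes, 15 probes of 8 genes were well above background on all 3 arrays, and 3 probes, those of SOX6 and SOX11, were so on none. A probe entered a comparison when the brighter array read above 100 a.u. before scaling and at least 1 of both arrays was well above background. In MB, 8 of the 15 member probes that entered lay 2-fold or more above OM, belonging to SOX2, SOX4, SOX5 and SOX8, and 0 lay 2-fold or more below. Over all 24056 probes compared, 6.85% lay 2-fold or more above and 4% below. At 5-fold or more above OM there were 2 member probes, both of SOX2, and 0.952% of all probes. The median log2 ratio of MB to OM was 1.40 over the 15 member probes and 0.11 over all probes compared, and 13 of the 15, against 59.0% of all, were above 0 on the log2 scale. Since the list was made with these ratios known, nothing is read from the gap between the shares.

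Against NM, MB was 2-fold or more higher on 9 of 14 member probes, from SOX2, SOX4, SOX5, SOX8, SOX9 and SOX12, and 1 probe of SOX8 was 2-fold or more lower. Over 23997 probes the corresponding shares were 14.3% and 9.54%. At 5-fold or more, 6 member probes were higher in MB than in NM, all of SOX2, SOX5 and SOX8, beside 2.13% of all probes. Those of SOX5 and SOX8 lay near that line, between 5.02 and 5.52. All of them fell below 5-fold with quantile normalization in place of the scaling. Both SOX2 probes stayed at 19.3-fold or more in every setting tried. NM and OM differed less in the member genes. No member probe was 2-fold or more higher in NM, 0 of 14 beside 3.92% of 23608 probes, and 1 probe of SOX2 was 2-fold or more lower, beside 5.81%. The 3 comparisons share arrays pairwise and are not independent of one another.

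**Figure D1:**
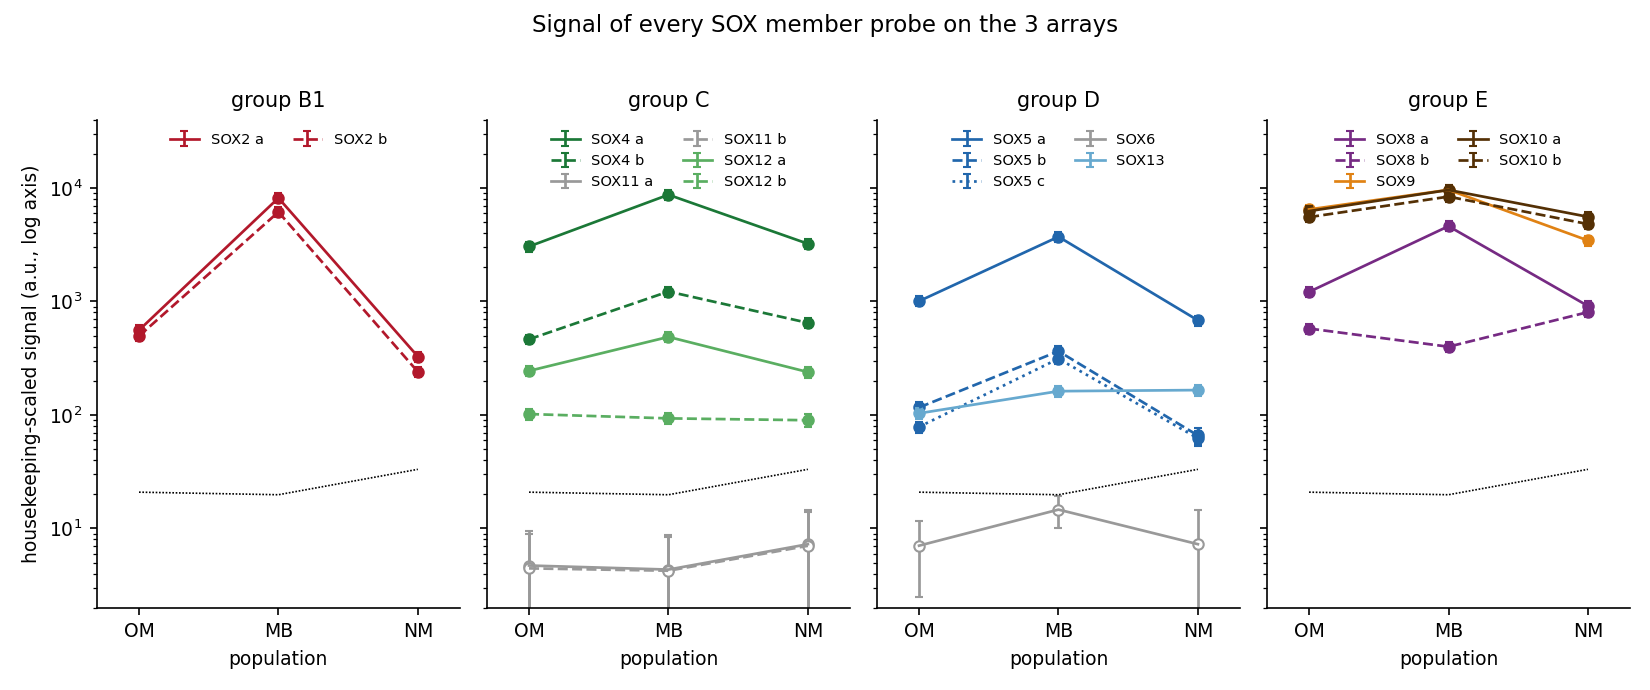
Housekeeping-scaled signal in a.u. (log axis) of all 18 member probes in OM, MB and NM, by Sox group, with a, b and c naming the probes of a gene from the brightest to the dimmest. Bars are the scanner software's error of a spot, open circles are signals not well above background, and the thin dotted line is the lowest signal well above background on each array; SOX2, SOX4, SOX5 and SOX8 a peak in MB, while SOX6 and SOX11 stay under the dotted line.

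**Figure D2:**
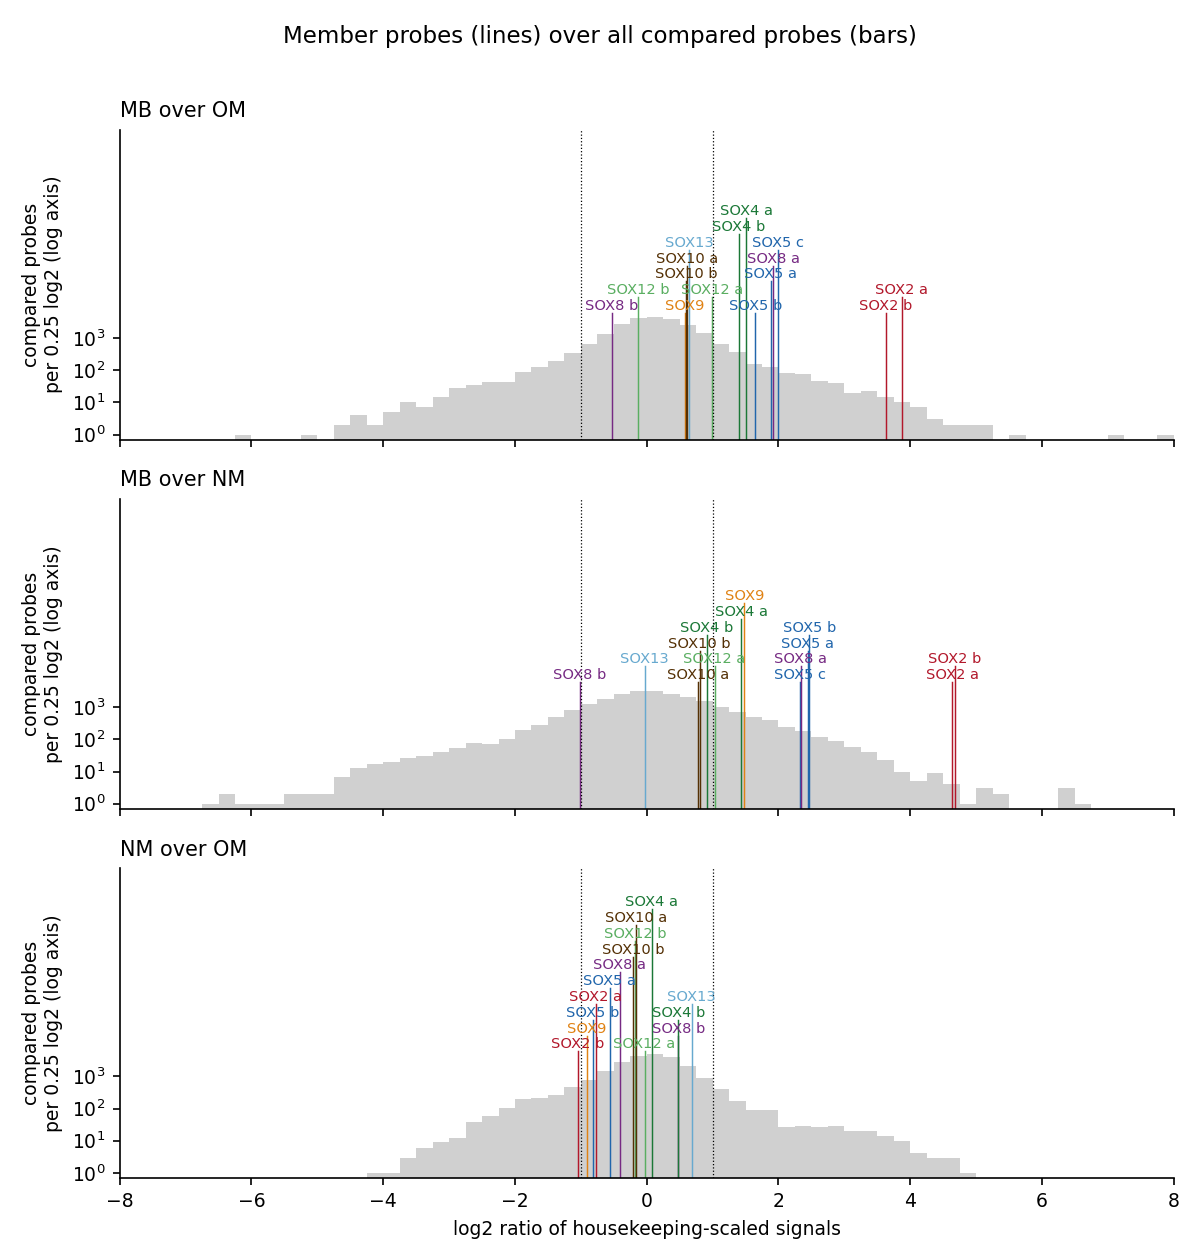
Log2 ratios of the member probes (coloured lines, whose height only separates the names) over the distribution of all compared probes (grey bars, number of probes per 0.25 log2 on a log axis) for MB over OM, MB over NM and NM over OM. Dotted lines mark 2-fold, and both SOX2 probes lie in the right tail of the upper 2 panels and left of 0 in the lowest one.

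SOX2, the group B1 factor that maintains pluripotent and neural stem cells, was represented by a pair of probes on chromosome 3 (hg17, plus strand). SOX2 a at chr3:182914579-182914638 lies 1131 bases further along the transcript than SOX2 b at chr3:182913448-182913507, which is in the coding part of this single-exon gene. They share no run longer than 5 bases, so each one is a separate reading of the transcript. The letters are shown because the statement on SOX2 rests on these 2 probes (the first 30 bases of SOX2 a, and all 60 bases of SOX2 b).
SOX2 a: tggccatgcaggttgacaccgttggtaatt
SOX2 b: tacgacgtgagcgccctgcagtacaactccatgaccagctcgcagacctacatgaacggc

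SOX2 a read 559 ± 56.0 a.u. in OM, 7974 ± 797 in MB and 287 ± 29.3 in NM. SOX2 b read 496 ± 49.8 a.u. in OM, 6005 ± 601 in MB and 211 ± 22.0 in NM. On both probes the order was the same, with MB far above OM and NM the lowest. Only 23 of the 24056 probes compared had a larger ratio of MB to OM than SOX2 a, and 32 a larger one than SOX2 b. In the comparison with NM, 12 and 11 of 23997 probes had a larger one. The log2 ratio of MB to NM was 4.64 on SOX2 a and 4.68 on SOX2 b, a difference of 0.04 that is less than the spot-to-spot SD of 0.07. For MB to OM it was 3.87 and 3.63, and the difference of 0.24 is larger than that SD.

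SOX2 in NM lay under its OM level. The signal of NM was 1.71-fold below OM on SOX2 a and 2.07-fold below on SOX2 b, which was the only member probe to pass 2-fold between both monolayers. The normexp background correction models background and signal together, and an offset of 50 a.u. was added to the corrected signals. With it SOX2 b had a log2 ratio of NM to OM of -0.81, and 8 of 11 settings kept this probe past 2-fold. The 11 settings here and below include the reported one, the deposited value table and outliers kept. The value table holds the same values and no member spot was an outlier, so these settings could hardly move a member probe. No setting turned the direction of either probe.

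SOX2 lies inside a longer transcription unit, SOX2-OT, a non-coding RNA gene that the array lists as SOX2OT. Its probe at chr3:182941127-182941186 (hg17) starts 26489 bases beyond the end of SOX2 a. It read 46.1 ± 6.5 a.u. in OM, 185 ± 19.0 in MB and 24.8 ± 6.78 in NM, where it was not well above background. MB was 4.11-fold above OM, and at least 5.70-fold above NM. The non-coding probe was thus also brightest in MB, and its ratio to OM was smaller than those of both SOX2 probes.

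The partner factors and targets with which SOX2 acts in pluripotent and neural stem cells were taken as a list of 16 genes, of which 8 were at background on all 3 arrays, among them NANOG, FGF4, ZFP42, LIN28 and DPPA4. Of 7 genes of the list that entered the comparison of MB with OM, 0 passed 2-fold in either direction, beside 6.85% higher and 4% lower over all probes. Their median log2 ratio was -0.01 beside 0.11 for all probes. POU5F1, the partner of SOX2 in embryonic stem cells and a gene with near-identical pseudogene copies, read 212 a.u. in OM, 281 in MB and 130 in NM on its brightest probe, a ratio of 1.36 between MB and OM. Against NM, POU3F2, a neural POU factor, and NES, an intermediate filament of neural progenitors, were higher in MB by 3.12-fold and 4.88-fold. KLF4 was lower, with a ratio of 0.417. These were 2 higher and 1 lower of 7 that entered, beside 14.3% and 9.54% of all probes. Genes named here or below by their passing 2-fold, other than the 10 SOX genes, were chosen after their values were seen, unless the rule for named genes gave them.

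In group C, SOX4 was elevated in MB on both of its probes, which start 1016 bases apart on chromosome 6 (chr6:21704964-21705023 and chr6:21705980-21706039, hg17). SOX4, which supports survival of neural and lymphoid precursors, read 3051 ± 305 a.u. in OM, 8515 ± 852 in MB and 2828 ± 283 in NM on probe a. Probe b read 464 ± 46.6 a.u. in OM, 1195 ± 120 in MB and 569 ± 57.2 in NM. MB was the highest array for both probes, and both monolayers were near one another. The fold of MB over OM was 2.86 on probe a and 2.63 on probe b, and that of MB over NM was 2.70 and 1.89. The last value lies just under 2-fold and passed it in 1 of 11 settings. In NM against OM the log2 ratio was 0.08 on probe a, which turned below 0 in 2 of the settings, since 9 of 11 gave a value above 0, and 0.48 on probe b.

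SOX12, the third gene of group C and a weaker activator than SOX4, gave probes that disagreed. SOX12 a at chr20:256714-256773 read 244 ± 25 a.u. in OM, 476 ± 47.9 in MB and 210 ± 22.1 in NM. SOX12 b at chr20:258276-258335 read 102 ± 11.2 a.u. in OM, 91.2 ± 10.0 in MB and 78.8 ± 10.1 in NM. By probe a SOX12 was highest in MB, and by probe b the 3 arrays, once scaled, differed by little more than the error of the spots. The log2 ratios of MB to OM, 1.00 and -0.13, lay 1.12 apart, a gap well beyond the spot SD of 0.07. SOX12 a stood just outside the 2-fold line against OM, at 1.99, and just inside it against NM, at 2.04. It passed against NM in 4 of 11 settings. The first 30 bases of each probe are shown because the call on SOX12 depends on which one is read.
SOX12 a: ggagagacatcgacttggccagtgagactg
SOX12 b: ttcttgtctttgaggttctgactggtgttt

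SOX11, which with SOX4 activates neuronal genes, stayed at background throughout, with signals between 4.15 and 6.38 a.u. over its 2 probes. Among 7 neuronal targets of the group C factors, 3 entered the comparison of MB with OM, with a median log2 ratio of 0.51 beside 0.11 for all probes. Of the 3, 0 passed 2-fold, beside 6.85% higher and 4% lower over all probes. MAP2, a dendritic microtubule protein, read 192 a.u. in OM, 326 in MB and 92.4 in NM, a fold of 3.17 between MB and NM. It was the 1 of 3 targets 2-fold or more higher in that comparison, beside 14.3% of all probes. TUBB3, a neuronal tubulin, had a ratio of MB to OM of 0.936, and DCX and NEUROD1 were at background on all 3 arrays.

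In group D, SOX5 was elevated in MB on all 3 of its probes on the minus strand of chromosome 12. SOX5, which acts with SOX6 in cartilage and restrains SOX10 in melanocytes, read 1007 ± 101 a.u. in OM, 3633 ± 363 in MB and 598 ± 60.2 in NM on probe a (chr12:23578397-23578456). Probe b read 116 ± 12.7, 356 ± 35.9 and 57.9 ± 9.02 a.u., in the order OM, MB and NM, and its deposited coordinates cover fewer bases than the probe and are not printed. Probe c (chr12:23576561-23576620) read 78.6 ± 8.96, 306 ± 30.9 and 54.7 ± 8.06 a.u. in the same order. Every probe had the order seen for SOX2, with MB on top, OM next and NM lowest. The fold of MB over OM was 3.69, 3.13 and 3.98 for probes a, b and c, and that of MB over NM was 5.45, 5.52 and 5.02. Normexp with its offset of 50 a.u. raises low signals. With it, the ratios of MB to NM on the dim probes b and c came down to 3.05 and 2.58. The ratio on probe a was 4.95 or more in every setting. The part of the offset in these shifts was not tested. NM lay below OM by 1.48-fold on probe a and 1.77-fold on probe b. Probe c did not enter that comparison, as both monolayers read under 100 a.u., and its ratio was above 1 in 1 of 11 settings.

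The other genes of group D did not follow SOX5. SOX6 read 7.06 a.u. in OM, 14.3 in MB and 6.38 in NM, all of them at background. SOX13, an autoantigen that also binds TCF factors, read 103 ± 11.6 a.u. in OM, 158 ± 16.5 in MB and 145 ± 16.2 in NM at chr1:200828208-200828267. Its signal in NM stayed near that in MB. The fold over OM was 1.57 in MB and 1.60 in NM, and the log2 ratio of MB to NM, -0.03, was above 0 in 1 of 11 settings.

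In group E the largest ratio was that of SOX8, and only on 1 of 2 probes. SOX8, which takes part in neural crest and glial development, read 1215 ± 122 a.u. in OM, 4501 ± 450 in MB and 801 ± 80.3 in NM on SOX8 a (chr16:976894-976953). SOX8 b (chr16:975015-975074), 1879 bases before it and within coding sequence, read 577 ± 57.9 a.u. in OM, 390 ± 39.3 in MB and 707 ± 71.0 in NM. The order of the 3 populations was thus inverted between the probes, with MB highest on one and lowest on the other. Probe a gave a fold of 3.79 over OM and 5.04 over NM, the latter from 4.58 to 5.62 over the 11 settings. By probe b MB was 1.45-fold below OM and 2.02-fold below NM, the latter past 2-fold in 8 of 11 settings. The log2 ratios of MB to OM lay 2.45 apart, the widest gap between probes of a member gene. The probes are shown since they lead to opposite calls (the first 30 bases of SOX8 a, and all 60 bases of SOX8 b, rich in G and C).
SOX8 a: cctgctgccttcactcctttctgaccaagc
SOX8 b: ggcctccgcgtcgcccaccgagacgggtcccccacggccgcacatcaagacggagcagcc

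The G and C content of SOX8 b was 75%, the highest among the 18 member probes, whose median was 41.7%, and that of SOX8 a was 45.0%. Across the whole array the ratios moved with this content. Over 335 probes with 70% G and C or more, the median log2 ratio of MB to OM was -0.36, with quartiles of -0.57 and -0.10, beside 0.12 over 10539 probes of 40 to 50%. The value of SOX8 b, -0.53, lay inside those quartiles, whereas that of SOX8 a, 1.92, was above the 90th percentile of its class, 0.85. Between MB and NM, probe b had -1.01 where its class had a median of -0.67 and a lower quartile of -0.92, and between NM and OM it had 0.48 where the class had 0.24 and an upper quartile of 0.42, so that it lay outside the quartiles in both. The part of base composition in the signal of SOX8 b was not tested. SOX2 b, at 58.3% the next richest of the member probes, belongs to the class of 50 to 60%. The median log2 ratio of MB to OM in that class was 0.06, so SOX2 b is no comparison for SOX8 b.

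**Figure D3:**
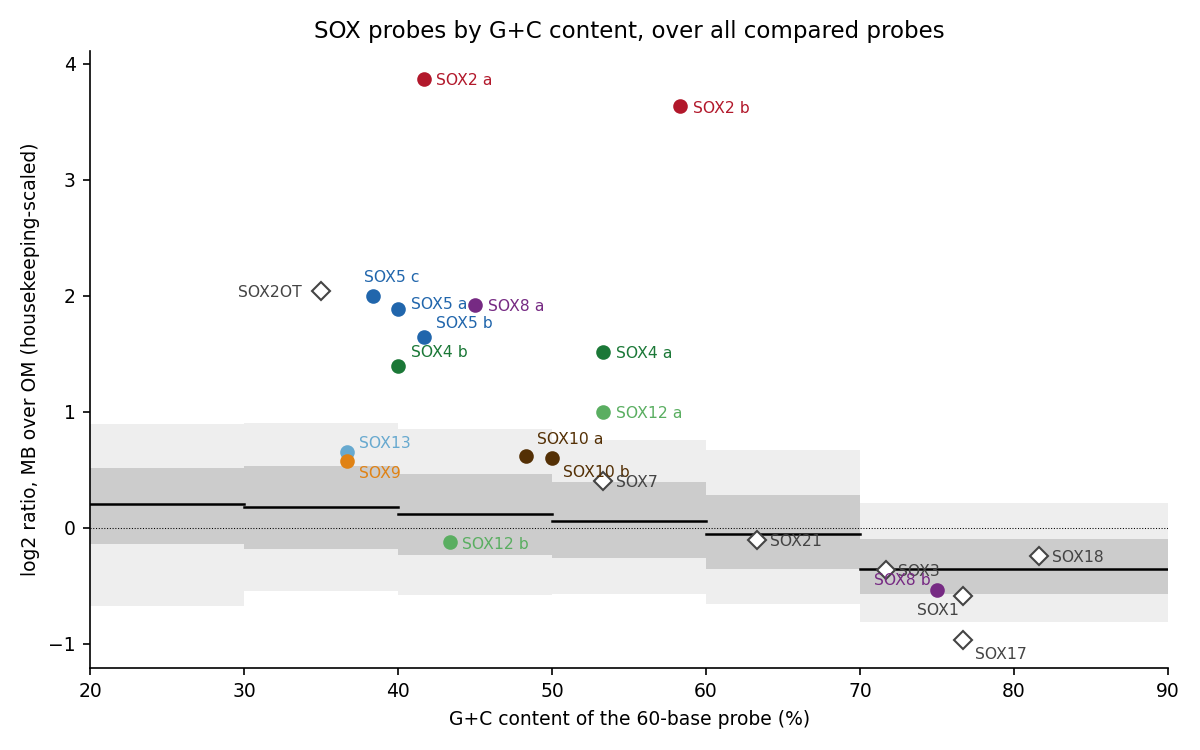
Log2 ratio of MB to OM (y axis, housekeeping-scaled) against the G and C content of the 60-base probe (x axis, %) for member probes (filled circles) and for SOX2OT and other SOX genes (open diamonds) measured in both populations. Black lines, dark and light bands are the median, quartiles and 10th to 90th percentiles of all compared probes per class of content; SOX8 b lies among the other probes of 70% or more, and SOX2, SOX4 and SOX5 lie above the bands of their classes.

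SOX9 and SOX10, the group E factors of cartilage and of the melanocyte and glial lineages, were well above background on all arrays and within 2-fold of OM in MB. SOX9 at chr17:67633436-67633495 read 6465 ± 647 a.u. in OM, 9405 ± 940 in MB and 3023 ± 302 in NM. Its MB signal was 1.49-fold above OM, while NM was 1.88-fold below OM, so that MB exceeded NM by 2.79-fold. In NM it stood just outside the 2-fold line, which it passed in 2 of 11 settings. SOX10 was read by a pair of probes that overlap by 50 bases and count as 1 reading (chr22:36693579-36693638 and chr22:36693589-36693648, minus strand). SOX10 a read 6254 ± 625 a.u. in OM, 9382 ± 938 in MB and 4887 ± 489 in NM, and SOX10 b 5533 ± 553, 8200 ± 820 and 4215 ± 422 in the same order. Their folds of MB over OM, 1.53 and 1.52, differed by less than the spot SD, and those of MB over NM were 1.72 and 1.75. Neither probe passed 2-fold in any of the 3 comparisons under any of the 11 settings.

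Targets of the group E factors moved in several directions. Of 14 glial targets of SOX10, 11 entered the comparison of MB with OM. Of these, 5 were 2-fold or more higher (ERBB3, GJB1, EGR2, CDH19 and NGFR) and 1, GFAP, was lower. The shares over all probes were 6.85% and 4%, and the median log2 ratio was 0.83 beside 0.11. GFAP rested on 1 of its 3 probes, as the others were at background on all arrays, and EGR2 and NGFR had 1 probe each. Against NM, 12 entered, 4 were higher (ERBB3, GJB1, S100B and CDH19) and 2 lower (GJC3 and GFAP), beside 14.3% and 9.54%. The median log2 ratio there was 0.39 beside 0.07. After scaling NGFR and EGR2 were highest in NM, 4.86-fold and 2.27-fold above OM, and their ratios of MB to NM were 0.592 and 0.937. CDH19, a cadherin of Schwann cell precursors, read 29.7 a.u. in OM, 481 in MB and 68.3 in NM. GJB1, the connexin of myelinating Schwann cells, read 235 a.u. in OM, 2081 in MB and 60.1 in NM. ERBB3, the neuregulin receptor, read 737 a.u. in OM, 4055 in MB and 253 in NM. Like SOX2, GJB1 and ERBB3 were lowest in NM, and CDH19 read under 100 a.u. in both monolayers and did not enter the comparison between them. The folds of MB over OM were 16.6, 9.06 and 5.63 in that order, each on the brightest probe, and the 3 probes of ERBB3 spanned 2.16 to 6.73. GJC3, a glial connexin that the array lists as GJE1, went another way and read 99.4 a.u. in OM, 92.7 in MB and 463 in NM, 5.31-fold above OM. In NM against OM, 3 of 11 glial targets were 2-fold or more higher (EGR2, GJC3 and NGFR), beside 3.92% of all probes. Lower were 2 (ERBB3 and GJB1), beside 5.81%.

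Among the pigment cell targets of SOX10, 10 genes were listed. Of these, 4 entered the comparison of MB with OM, with a median log2 ratio of 0.60 beside 0.11 for all probes. Of the 4, 1 was 2-fold or more higher and 0 lower, beside 6.85% and 4% of all probes. The one that passed was EDNRB, the endothelin receptor of melanoblasts, at 308 a.u. in OM, 996 in MB and 381 in NM on its brighter probe. The fold of MB over OM was 3.31 on that probe and 8.33 on the other. MITF, the master regulator of melanocytes, had a ratio of MB to OM of 1.73 on its brightest probe. DCT, an enzyme of melanin synthesis, had one of 0.963, but it read under 100 a.u. and did not enter the comparison. TYR, TYRP1, RET and KIT were at background throughout.

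Among 12 cartilage matrix genes that SOX9 with SOX5 and SOX6 activates in chondrocytes, 7 entered the comparison of MB with OM. COL9A1 and COL11A2, both fibril-associated or fibrillar collagens of cartilage, were 2-fold or more higher, by 4.11-fold and 2.52-fold, and 0 were lower. The shares over all probes were 6.85% and 4%, and the median log2 ratio was 0.81 beside 0.11. COL2A1, the main collagen of cartilage, was well above background only in MB, at 21.2 a.u. Against NM, 8 entered. COL9A1, COL9A2 and COL9A3 were 2-fold or more higher in MB, and ACAN, MATN1 and MATN3 were lower, beside 14.3% and 9.54% of all probes. MATN1, a matrix protein of cartilage, read 49.9 a.u. in OM, 39.9 in MB and 271 in NM, which was 6.19-fold above OM.

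**Figure D4:**
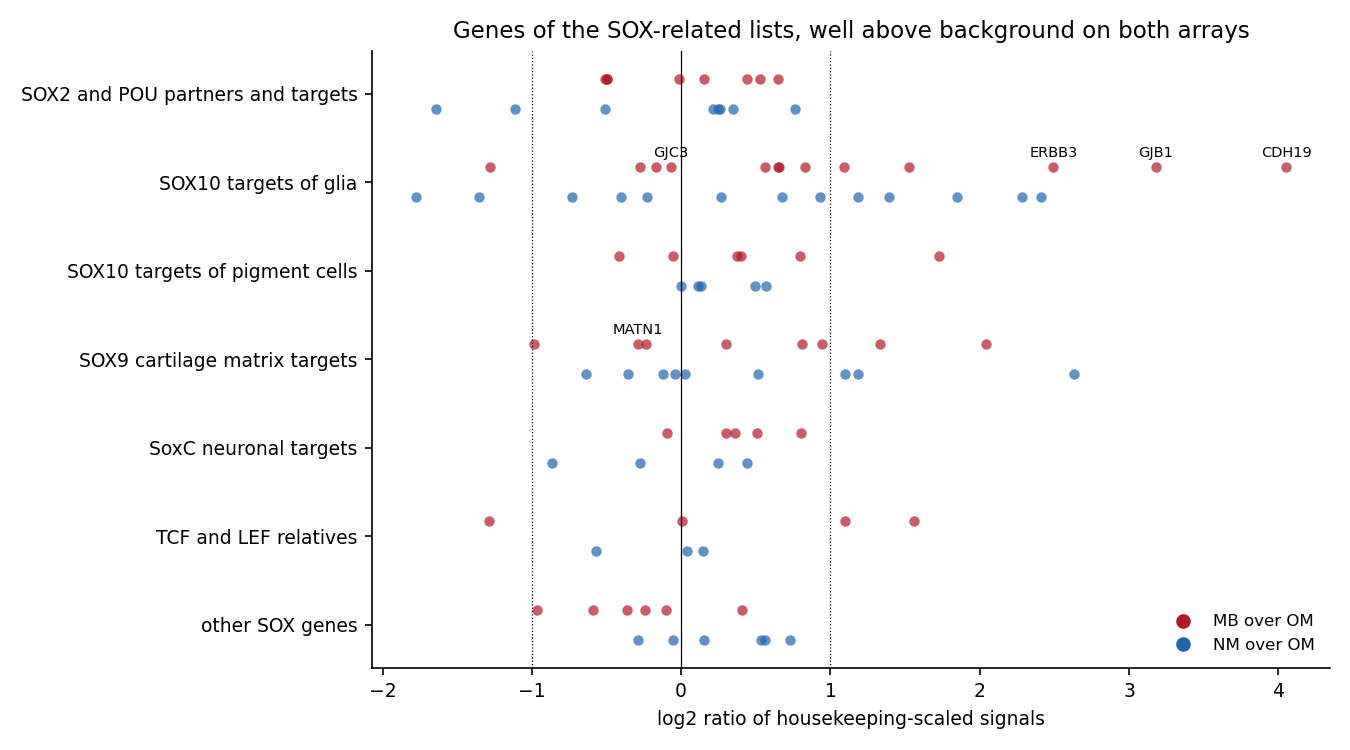
Log2 ratios of MB over OM (red) and NM over OM (blue) for the genes of each SOX-related list that were well above background on both arrays, 1 point per gene by its brightest probe, with dotted lines at 2-fold. The glial targets of SOX10 reach the highest ratios in MB (CDH19, GJB1 and ERBB3), while the points of other SOX genes lie within 2-fold of OM.

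The TCF and LEF factors, which carry an HMG box related to that of SOX proteins and mediate Wnt signals, also differed among themselves. LEF1 was 2.95-fold and TCF7 2.14-fold higher in MB than in OM, and TCF7L1 was lower, with a ratio of 0.409. They were the 3 of 4 listed that entered, beside 6.85% higher and 4% lower over all probes. The other 9 numbered SOX genes on the array had 16 probes, of which 6 were well above background on all 3 arrays and 10 on none. Beside 6.85% higher and 4% lower over all probes, 0 of 5 such genes that entered the comparison of MB with OM passed 2-fold. Their median log2 ratio was -0.36 beside 0.11. Of their 6 measured probes 4, those of SOX1, SOX3, SOX17 and SOX18, had 70% G and C or more. For SOX1, SOX3 and SOX17 every other probe of the same gene was at background, so their signal rested on the rich probe.

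Promoters were looked at because SOX2, SOX4 and SOX5 were elevated together. RefSeq promoter sequences (GRCh38.p14) were at hand for 6 of the 10 members, and the 250 bases before the annotated start were searched on both strands for the SOX core motifs ACAAAG and ACAATG, the CCAAT box and the POU octamer ATGCAAAT. Over 35116 such windows, 21.2% held a SOX motif, 32.0% a CCAAT box and 1.63% the octamer. The sequences follow with motif matches of either strand in capitals, for SOX2 at chr3:181711675-181711924 (plus), SOX4 at chr6:21593501-21593750 (plus) and SOX5 at chr12:24562492-24562741 (minus).
SOX2: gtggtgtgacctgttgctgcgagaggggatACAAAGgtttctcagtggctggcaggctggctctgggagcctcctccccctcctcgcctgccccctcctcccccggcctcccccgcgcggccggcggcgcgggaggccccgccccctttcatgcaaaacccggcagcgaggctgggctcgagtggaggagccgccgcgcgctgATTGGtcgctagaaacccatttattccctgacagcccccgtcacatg
SOX4: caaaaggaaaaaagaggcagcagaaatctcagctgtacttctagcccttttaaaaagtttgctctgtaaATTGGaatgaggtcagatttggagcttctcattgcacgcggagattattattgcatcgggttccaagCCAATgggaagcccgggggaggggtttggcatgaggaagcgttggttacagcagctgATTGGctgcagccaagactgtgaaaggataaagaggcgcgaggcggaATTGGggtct
SOX5: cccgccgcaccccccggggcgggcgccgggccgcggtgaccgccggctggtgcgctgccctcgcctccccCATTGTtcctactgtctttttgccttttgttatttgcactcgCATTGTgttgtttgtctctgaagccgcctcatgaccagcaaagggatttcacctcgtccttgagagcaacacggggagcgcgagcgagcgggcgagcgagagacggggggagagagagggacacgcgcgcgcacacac

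The window of SOX2 held 1 SOX motif, 220 bases before the start, and 1 CCAAT box, 47 bases before it. That of SOX4 held 4 CCAAT boxes, at 181, 114, 57 and 10 bases, and no SOX motif. That of SOX5 held 2 SOX motifs, at 180 and 138 bases, and no CCAAT box. No 2 motifs overlapped in these windows, and no single one of the motifs searched was common to all 3 genes. SOX12 was the one member whose window held the octamer, at 188 bases, beside a CCAAT box. The window of SOX13 held none, and SOX6 had 5 windows for its alternative starts, of which 2 held a SOX motif. A match of letters says nothing of binding in these cells.

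How far the ratios depended on scaling and background correction is given by 11 settings for each measured probe, the reported one among them. The median log2 ratio of all compared probes for MB to OM went from 0.11 with the housekeeping genes to -0.18 with the spike-in probes. For NM to OM it was 0.06 as reported, -0.13 without scaling and 0.13 with the geometric mean of the housekeeping genes. A scaling that moves every probe of an array by 1 factor keeps the gap between a SOX probe and that median. Quantile normalization, normexp and no background subtraction are not of this kind. With normexp the log2 ratio of MB to OM on SOX5 c went from 1.99 to 1.37, while the median went from 0.11 to 0.09. SOX2 a spanned a fold of 11.9 to 14.6 over OM and SOX5 a one of 3.00 to 3.69. In the comparison of MB with OM no member probe changed its direction or its side of 2-fold under any of the 11 settings, and SOX4 b came nearest to the line from above, at 2.14.

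**Figure D5:**
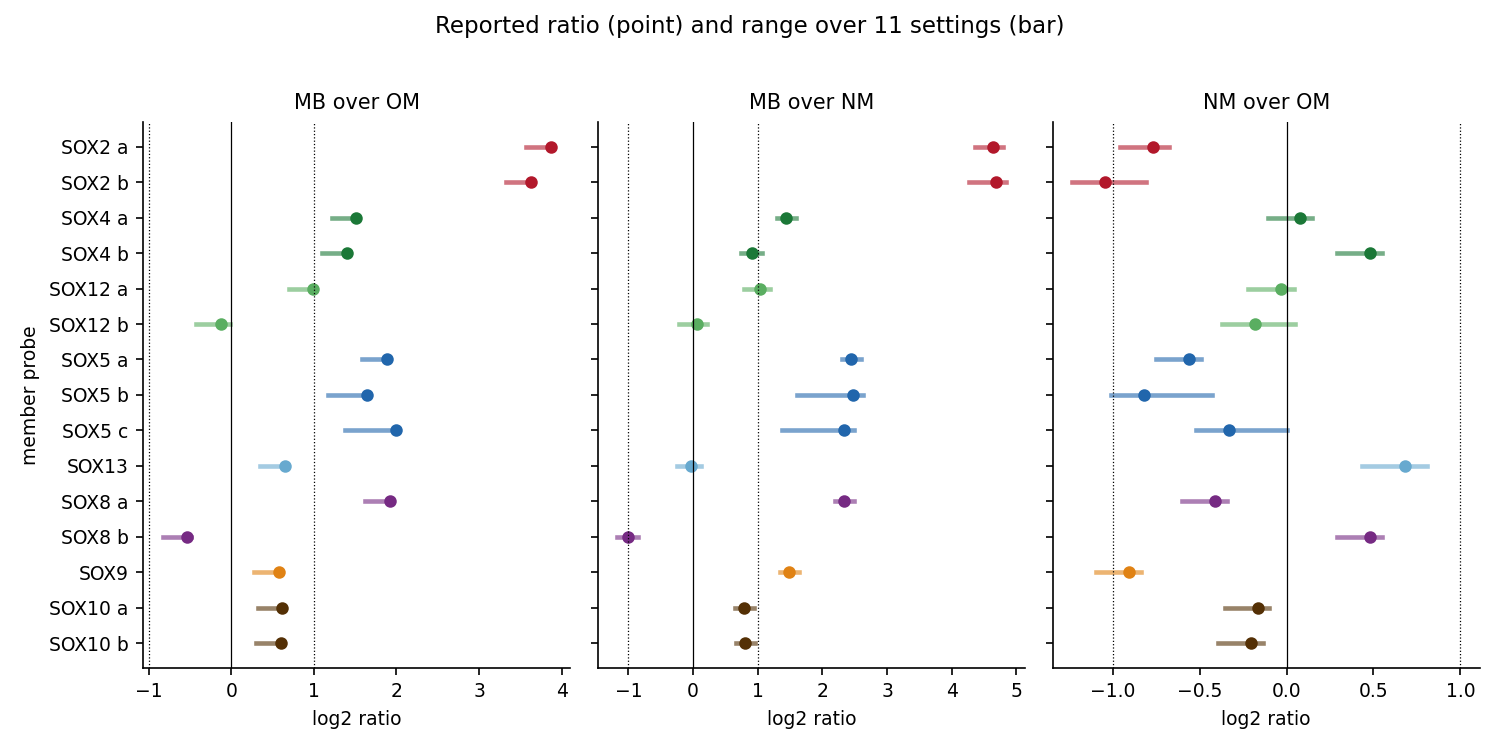
Log2 ratio of each measured member probe (y axis) as reported (point) and its range over 11 settings of scaling and background correction (bar), for MB over OM, MB over NM and NM over OM. Solid lines mark equal signals and dotted lines 2-fold; no bar in the left panel crosses 0, and bars of SOX12 b and SOX13 cross it in the middle panel.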

How the data were processed

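Total RNA of the OM, MB and NM populations was labelled with Cy3 and hybridised to 3 one-colour Agilent arrays on 1 slide. The authors deposited the intensity of each spot from Agilent Feature Extraction (9.5.3.1 in the file header), background-subtracted, on a linear scale and not scaled between arrays, and a value table with the same intensity values (130128 of 130128 within 0.1%). From these, outlier spots were dropped, spots of a probe averaged and arrays scaled by the arithmetic mean of GAPDH, ACTB and HSP90AA1, each from a probe in 10 spots. The study names HSP90 without the gene. Coordinates are hg17 as in the file header. A fold against an array not well above background is a lower bound, set at the lowest signal well above background there (20.9 a.u. in OM, 19.4 in MB and 29.1 in NM). A listed gene was read by its brightest probe. With 1 array per population no test was run, and the number of arrays limits precision. Members and gene lists were chosen with earlier results of these data known. Besides all members and SOX2OT, genes were named if past 5-fold in MB (at most 4 a list) or among the 5 nearest to SOX2. Alternatives used other scalings, normexp with an offset of 50 a.u. (limma 3.58.1, R 4.3.3), no background subtraction, outliers kept and the value table. Tables were made with Python 3.11.15 and pandas 2.3.3. Probe sequences come from the deposited files and promoters from RefSeq.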

Additional observations from a re-analysis of the deposited data

How the results depend on the processing

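No paired analysis was possible because each population had 1 array, and no replicate could be left out. The fold of SOX2 a in MB over OM was 12.8 with 75th percentile scaling, 13.7 with quantile normalization, 11.9 with spike-in scaling, 12.8 with normexp, 13.1 without background subtraction and 12.4 on SOX2 b. Over NM it was 23.0 with 75th percentile scaling, 22.9 with quantile normalization, 27.8 without scaling, 22.7 with spike-in scaling, 23.4 with the geometric mean of the housekeeping genes, 20.4 with normexp and 21.4 without background subtraction. All of these values kept the direction reported. The number of member probes past 2-fold between MB and OM stayed at 8 under every scaling and background setting, and was 2 at a 5-fold threshold. Between MB and NM it was 10 as reported, 8 to 10 under the scaling and background settings, and 6 at 3-fold and at 5-fold. Between NM and OM, where 1 probe passed, there were 3 without scaling, 2 with spike-in scaling, and 0 with the geometric mean, with normexp, without background subtraction, at 3-fold and at 5-fold. The cause of these shifts was not tested. SOX5 b read under 100 a.u. in NM, SOX5 c in OM and NM, and SOX12 b in MB and NM. For SOX5 b and c the lowest ratios of MB to either monolayer came with normexp. The part of low signal in the ratios of these probes was not tested.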

Other observations

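The genes whose pattern over the 3 arrays was most like that of SOX2 a were sought among 11167 genes well above background on all arrays, by the Euclidean distance of the log2 ratios of MB to OM and of NM to OM. The nearest was RLBP1, a retinoid-binding protein of retinal glia, at a distance of 0.43, with 166 a.u. in OM, 1817 in MB and 74.7 in NM. GFRA2, a receptor of the GDNF family, followed at 0.63, with 59.1 a.u. in OM, 1297 in MB and 32.7 in NM. RASL12, a small GTPase of the RAS family, lay at 0.78, with 380, 3829 and 129 a.u. in the same order. ROPN1L and ADRA2A, an adrenergic receptor, lay at 0.89 and 0.96, and their NM signals were near OM, with NM to OM ratios of 0.979 and 0.933. RLBP1, GFRA2 and RASL12, like SOX2, were lower in NM than in OM. These distances rest on 3 arrays and are a description of pattern.

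Outside the 10 members, the signal of SOX3 and SOX1 came from 1 probe each. SOX3 read 74699 a.u. in OM, 56828 in MB and 94857 in NM on a probe with 71.7% G and C, while its other probes lay between 4.95 and 25.6 a.u. and were not well above background. SOX1 read 4685, 3037 and 6822 a.u. in OM, MB and NM on a probe of 76.7% G and C, and its other probe was at background on all arrays. The part of base composition in these signals was not tested.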
